A study of Mus musculus with 18 samples.

Results

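Fetal early thymic progenitors (fetal ETP) were set against adult DN2 thymocytes over all 22626 probe sets of the array. The comparison took the 3 arrays titled Fetal ETP and the 3 titled Adult DN2, 6 of the 18 arrays of the study. Fetal ETP were Lin- CD44+ CD25- c-Kit+ cells of C57BL/6 embryos, which the labels place at E14.5 and the study's methods 1 day later, with no sex stated. Adult DN2 were Lin- CD44+ CD25+ cells of C57BL/6 females aged 4 to 6 weeks. The 4 groups beside them were fetal DN2, adult ETP, fetal DN3 and adult DN3, with 3 arrays each, and no group carried a transgene, a deletion or a treatment. Before the sort the methods removed cells bound by lineage antibodies, among them those to NK1.1, CD11b and TER119. Each fetal array held RNA pooled from 2 sorts and each adult array RNA pooled from 4, according to the methods. The labels call the 3 arrays of a group biological replicates and the methods call them technical ones, so the p-values rest on a scatter of arrays that could be technical alone. The 2 groups differ in age, in stage and in the number of sorts pooled at once, and could differ in sex. Within this pair these cannot be told apart, so the values in adult ETP and fetal DN2 are given beside those of the pair.

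Progenitors that seed the thymus pass through the double negative stages, in which CD4 and CD8 are not yet expressed. Early thymic progenitors still hold myeloid, natural killer and dendritic potential and depend on Notch signals from the thymic epithelium. At the DN2 stage cells gain CD25, switch on the T lineage regulators and begin to make the chains of the pre-TCR, which is used at the DN3 stage. Fetal progenitors differ from adult ones in growth regulators that belong to the fetal state and in the lymphocytes that they give rise to.

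Fetal ETP were above adult DN2 in 635 of the 22626 probe sets (2.81%) and below them in 409 (1.81%). A probe set was called in this way where the adjusted p of limma was under 0.05 (Benjamini and Hochberg, over all probe sets) and the means were at least 1.8-fold apart. In 1039 of the 1044 called probe sets the arrays of the 2 groups did not overlap. For a called gene a lack of overlap thus adds little to the call. The deposited values are log2 values centred on the median of the 18 arrays for each probe set, so that they compare arrays and say nothing of the level of one gene against another. The share of higher calls was 60.8% of the 1044 calls, and it moved to 49.8% after quantile normalization and to 50.7% without Adult DN2 replicate 1, whose median over all probe sets was -0.09 log2. The medians of the other 5 arrays lay between -0.0002 and 0.05 log2, and the pooled SD between arrays was 0.31 log2 in fetal ETP and 0.50 log2 in adult DN2. Where a group was flat across its arrays it may lie at the floor of the signal, which centred values do not show, and the difference may then be a lower bound. With 1 probe set for each of 12384 genes, 381 genes (3.08%) were higher and 272 (2.2%) lower in fetal ETP, and 48 and 25 of these were at least 16-fold apart. For 13890 probe sets (61.4%) the 95% interval of the difference lay within 1.8-fold in both directions, while 1454 probe sets were at least 1.8-fold apart and not called. At an unadjusted p under 0.05 limma gave 3897 of the 22626 probe sets, both directions together. When the 6 arrays were fitted alone, with fewer degrees of freedom for the spread, 261 probe sets were higher and 160 lower.

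Many components of the pre-T cell receptor and of its signalling were lower in fetal ETP. Of 27 measured genes of this list, 11 were lower (40.7%, against 2.2% of all genes) and 1 was higher (3.70%, against 3.08%). The median difference was -1.37 log2 against 0.06 log2 over all genes. The lower count was 6 with the 6 arrays alone. In RNA of whole populations such as these, fewer cells with a transcript and less of it in each cell cannot be told apart. *Cd247*, the zeta chain of the receptor complex, stood at -5.30, -4.03 and -5.29 log2 in fetal ETP, against 0.74, 1.13 and 0.76 log2 in adult DN2. The groups lay far apart, with a difference of -5.75 ± 0.45 log2 (SE, adjusted p = 4.34e-06), although only 1 of the 4 probe sets of the gene was called. *Sh2d1a*, the adaptor SAP of SLAM family receptors, stood at -4.80, -4.64 and -4.82 log2 in fetal ETP and at 1.14, 0.89 and 0.52 log2 in adult DN2. *Trat1*, an adaptor that associates with the receptor, stood at -2.39, -2.73 and -3.82 log2 in fetal ETP and at 2.82, 1.47 and 2.16 log2 in adult DN2. Every fetal ETP array was below every adult DN2 array for both adaptors, and the difference was -5.60 ± 0.65 log2 for *Sh2d1a* (adjusted p = 0.000155) and -5.13 ± 0.56 log2 for *Trat1* (adjusted p = 0.0001).

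The CD3 chains *Cd3d* and *Cd3e*, which carry the signal of the receptor, were also lower, and *Cd3d* was uneven among the fetal arrays. *Cd3d* stood at -6.50, -2.16 and -4.38 log2 in fetal ETP, against -0.63, 0.10 and -0.12 log2 in adult DN2 (difference -4.13 ± 0.81 log2, adjusted p = 0.00758). *Cd3e* stood at -2.99, -2.31 and -3.32 log2 in fetal ETP, against 0.43, 0.14 and -0.93 log2 in adult DN2 (difference -2.75 ± 0.45 log2, adjusted p = 0.00218). Neither gene overlapped between the groups. *Cd3g* did not overlap either but was not called (adjusted p = 0.212, or 0.0268 with the 6 arrays alone), with -2.33, -1.55 and -2.10 log2 in fetal ETP, -0.01, 0.01 and -0.22 log2 in adult DN2 and an interval of the difference from -3.59 to -0.25 log2. *Ptcra*, the pre-T alpha chain, stood at -4.28, -2.35 and -4.30 log2 in fetal ETP and at -0.34, -0.39 and -1.85 log2 in adult DN2 (adjusted p = 0.0272). The arrays did not overlap, but the call did not survive the removal of Fetal ETP replicate 1 or 3 or of Adult DN2 replicate 1 or 2, where the adjusted p reached 0.124. The adaptor *Lat*, the kinases *Zap70* and *Tec* and the SLAM receptor *Slamf6* were lower, with differences of -1.88, -1.79, -1.92 and -2.48 log2. The exception was *Txk*, a Tec family kinase that was higher by 1.93 log2, a call lost without Fetal ETP replicate 2 or 3 or Adult DN2 replicate 1 or 2 (adjusted p up to 0.101).

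The means of adult ETP were -3.95, -4.94 and -3.56 log2 for *Cd247*, *Sh2d1a* and *Cd3e*, and those of fetal DN2 were -1.51, -2.71 and 0.19 log2. For *Cd3d* and *Ptcra* adult ETP averaged -6.24 and -5.74 log2, with 0.89 and 1.33 log2 in fetal DN2. The means of fetal ETP for these 5 genes thus stood closer to those of adult ETP than to those of adult DN2.

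**Figure D1:**
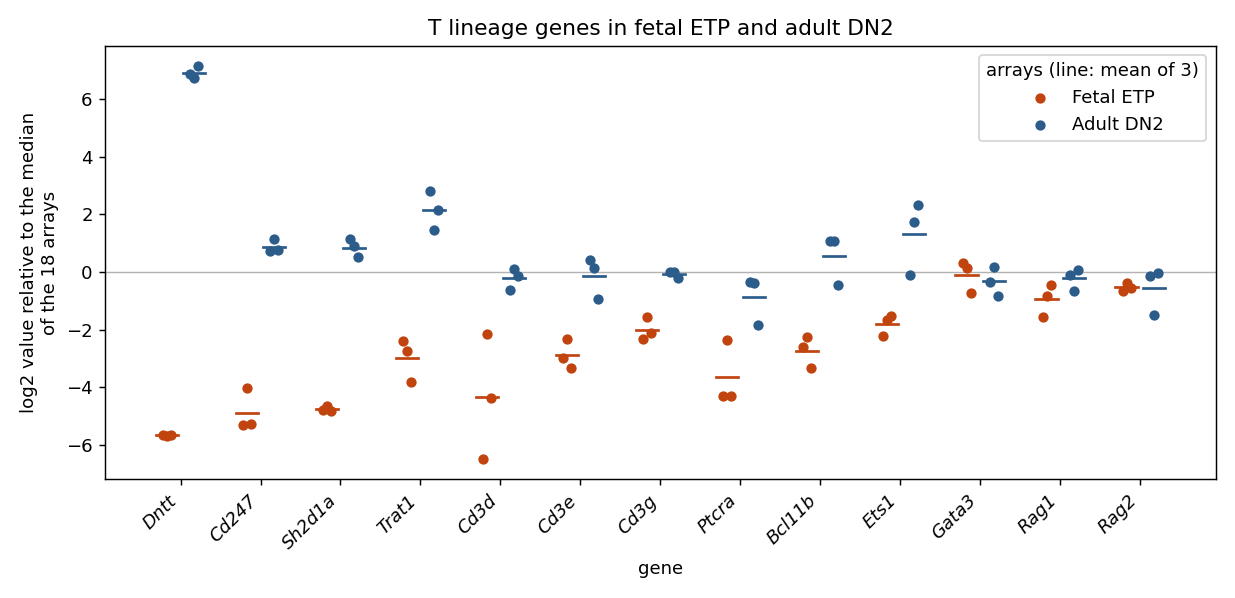
Log2 values relative to the median of the 18 arrays (vertical axis) for 13 T lineage genes (horizontal axis) in the 3 fetal ETP and the 3 adult DN2 arrays, each point an array and each line the mean of 3. The arrays of the groups lie apart from *Dntt* to *Ets1*, although *Cd3g* was not called, and overlap for *Gata3*, *Rag1* and *Rag2*.

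The gene of the terminal transferase showed the widest difference of all named genes. *Dntt* encodes the polymerase that adds nucleotides without a template at antigen receptor joints, and its values were -5.64, -5.69 and -5.66 log2 in fetal ETP, against 6.88, 6.72 and 7.16 log2 in adult DN2. The difference was -12.58 ± 0.16 log2 (adjusted p = 1.38e-14), and 2 of its 3 probe sets were called. The 9 fetal arrays lay between -5.75 and -5.58 log2, so that the fetal value may be a floor and the difference a lower bound. *Dntt* also stood at -5.69 log2 in fetal DN2 and at 6.05 log2 in adult ETP, so that its values followed age in these 4 groups. The other genes of V(D)J recombination did not share this difference. Of 11 measured genes 2 were lower (18.2%, against 2.2% of all genes) and 1 was higher (9.09%, against 3.08%). The second lower one was *Xrcc6*, the Ku70 subunit that binds broken DNA ends, with -1.55 ± 0.29 log2 (adjusted p = 0.00571). The higher gene was *Poll*, DNA polymerase lambda, with 2.51 ± 0.58 log2, a call that was lost without Adult DN2 replicate 3 or any 1 of the fetal ETP arrays (adjusted p up to 0.0655).

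The recombinase genes themselves were not called. *Rag1* stood at -1.56, -0.84 and -0.44 log2 in fetal ETP, against -0.10, -0.65 and 0.09 log2 in adult DN2 (adjusted p = 0.295). *Rag2* stood at -0.66, -0.40 and -0.54 log2 in fetal ETP, against -0.14, -1.48 and -0.05 log2 in adult DN2 (adjusted p = 0.964). The arrays overlapped for both genes, and the 95% intervals ran from -1.65 to 0.20 log2 for *Rag1* and from -0.66 to 0.70 log2 for *Rag2*. In adult ETP the means were -4.67 log2 for *Rag1* and -2.57 log2 for *Rag2*, further from adult DN2 than fetal ETP was.

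Few of the T lineage transcription factors were called. Of 26 measured factors 2 were lower in fetal ETP (7.69%, against 2.2% of all genes) and 1 was higher (3.85%, against 3.08%). The interval lay within 1.8-fold for 8. Without Adult DN2 replicate 2 the lower count was 4, and with the 6 arrays alone it was 0. *Bcl11b*, the factor that closes off alternative fates at the DN2 stage, stood at -2.61, -2.25 and -3.34 log2 in fetal ETP, against 1.07, 1.07 and -0.46 log2 in adult DN2 (difference -3.29 ± 0.49 log2, adjusted p = 0.00114). *Ets1*, a factor of lymphoid promoters, stood at -2.22, -1.65 and -1.53 log2 in fetal ETP, against -0.11, 1.75 and 2.32 log2 in adult DN2 (difference -3.12 ± 0.59 log2, adjusted p = 0.0062, called in 3 of 4 probe sets). Both were lower without overlap, and *Bcl11b* averaged -6.48 log2 in adult ETP beside -0.24 log2 in fetal DN2. *Id2*, an inhibitor of E proteins that is required for innate lymphocytes, was higher, with 1.67, 1.64 and 0.67 log2 in fetal ETP and -2.04, -2.38 and -2.00 log2 in adult DN2 (difference 3.47 ± 0.26 log2, adjusted p = 3.28e-06, 1 of 3 probe sets).

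*Gata3*, which acts from the first stage of T cell specification, stood at 0.32, 0.13 and -0.71 log2 in fetal ETP and at -0.33, 0.18 and -0.82 log2 in adult DN2. The groups overlapped, and the difference of 0.24 log2 had an interval from -0.66 to 1.13 log2, while adult ETP averaged -1.61 log2. *Ahr*, the aryl hydrocarbon receptor, differed by 0.15 log2 (-0.60 to 0.91) and *Ets2* by -0.08 log2 (-0.68 to 0.52), and adult ETP averaged -2.10 and -1.42 log2 for them. *Lef1*, a factor of the Wnt pathway that is used later at DN3, differed by 0.17 log2 (-1.11 to 1.46). *Gfi1* was not called, with a difference of -1.05 log2 and adjusted p = 0.0777, and *Spib*, *Runx1* and *Ikzf1* had intervals that included 0.

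Among the Notch receptors and targets 2 of 16 measured genes were higher in fetal ETP (12.5%, against 3.08% of all genes), and 0 with the 6 arrays alone. None was lower in limma, also at an unadjusted p under 0.05, or by the methods' analysis of variance. *Nrarp*, a target of Notch that limits its signal, stood at 1.28, 1.42 and 0.85 log2 in fetal ETP, against -2.90, -1.98 and -4.51 log2 in adult DN2. The groups lay apart in both of its probe sets, with a difference of 4.31 ± 0.66 log2 (adjusted p = 0.00141). *Dtx1*, another target, was higher by 2.34 ± 0.52 log2 (adjusted p = 0.0163), and of the arrays left out in turn only the removal of Adult DN2 replicate 2 kept this call, the adjusted p otherwise reaching 0.0598. *Notch1* and *Hes1* were not called, with differences of 1.05 and 0.76 log2 (adjusted p = 0.295 for both). The difference was above 0 for 15 of the 16 genes, but the median over all genes was itself 0.06 log2. A flat gene could thus also be above 0.

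Several genes of stem cells and early progenitors were higher in fetal ETP. Of 33 measured genes 8 were higher (24.2%, against 3.08% of all genes), and 5 without Fetal ETP replicate 1. The median difference was 0.63 log2. By limma 14 were higher and 0 lower at an unadjusted p under 0.05, against 3897 of all 22626 probe sets in both directions. *Meis1*, a cofactor of Hox proteins in stem cells, stood at 1.53, 1.06 and 1.33 log2 in fetal ETP, against -6.66, -5.18 and -5.74 log2 in adult DN2 (difference 7.17 ± 0.32 log2, adjusted p = 1.7e-08). *Lmo2*, a bridging protein of blood progenitor complexes, stood at 4.58, 4.75 and 5.53 log2 in fetal ETP, against -0.28, 0.18 and 0.57 log2 in adult DN2 (difference 4.80 ± 0.23 log2, adjusted p = 4.23e-08). *Tal1*, its partner, stood at 2.16, 2.41 and 2.48 log2 in fetal ETP, against 0.14, -0.32 and 0.64 log2 in adult DN2 (difference 2.20 ± 0.32 log2, adjusted p = 0.00108). None of the 3 genes overlapped between the groups. *Bcl11a* and *Procr*, the endothelial protein C receptor that marks stem cells, were higher by 2.65 and 3.33 log2, and *Gfi1b* and *Mycn* by 2.34 and 1.67 log2. The last 2 calls depended on single arrays, *Gfi1b* being lost without Fetal ETP replicate 1 or 2 or Adult DN2 replicate 1, with an adjusted p of up to 0.0771, and *Mycn* without any 1 array except Fetal ETP replicate 2, with one of up to 0.0831.

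*Flt3*, the receptor of lymphoid and dendritic progenitors, stood at 3.71, 3.27 and 3.52 log2 in fetal ETP and at 2.57, -0.05 and 0.00 log2 in adult DN2, where replicate 1 stood apart. It was called with adjusted p = 0.0119, and without Fetal ETP replicate 1 the adjusted p was 0.0534. *Mef2c* stood at 4.14, 4.17 and 5.96 log2 in fetal ETP and at -2.49, 1.58 and 2.66 log2 in adult DN2. It was not called (adjusted p = 0.0713), but it was with the array number as a block (adjusted p = 0.0254) and without Adult DN2 replicate 3. *Spi1*, which encodes PU.1, differed by 2.55 log2 with an interval from 0.44 to 4.66 log2 and was not called (adjusted p = 0.186). In adult ETP *Lmo2*, *Tal1* and *Flt3* averaged 8.41, 3.31 and 7.34 log2 and in fetal DN2 -0.03, -0.12 and -0.01 log2, while *Meis1* averaged 0.79 and -0.01 log2.

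**Figure D2:**
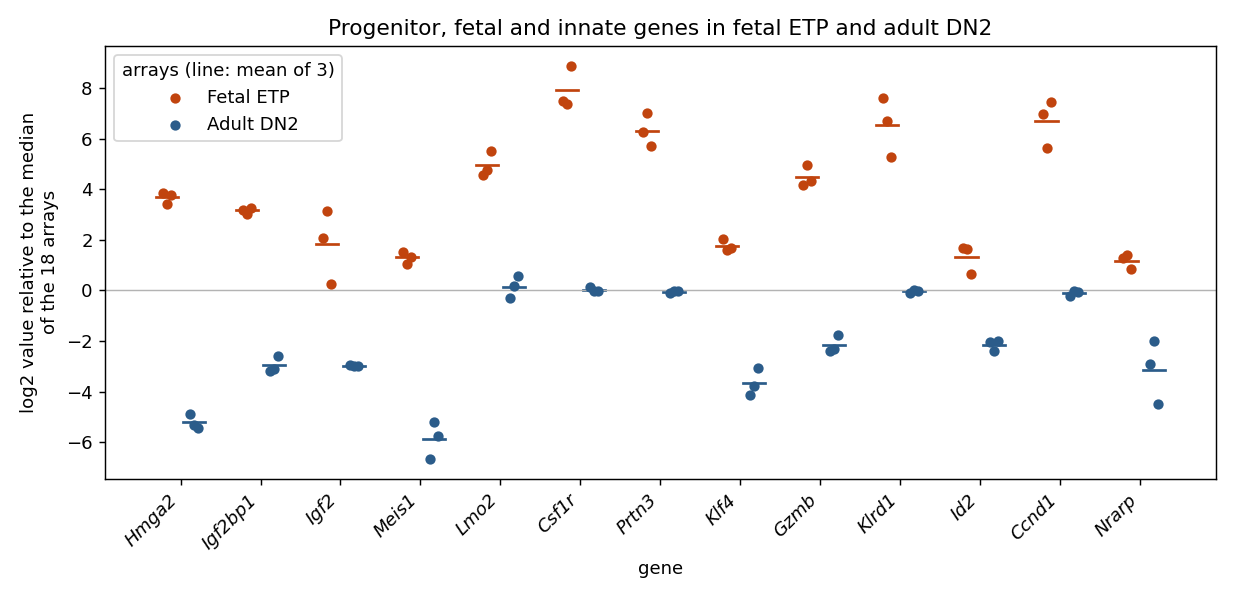
Log2 values relative to the median of the 18 arrays (vertical axis) for 13 genes that were higher in fetal ETP (horizontal axis), in the 3 fetal ETP and the 3 adult DN2 arrays, each point an array and each line the mean of 3. For every one of the 13 genes the fetal ETP arrays lie above the adult DN2 arrays.

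Some myeloid genes were among the widest differences, although the median of the list was close to that of all genes. Of 36 measured myeloid genes 5 were higher (13.9%, against 3.08% of all genes) and 1 was lower (2.78%, against 2.2%). The median difference was 0.08 log2. *Csf1r*, the receptor of macrophage colony stimulating factor, stood at 7.50, 7.39 and 8.90 log2 in fetal ETP, against 0.12, -0.01 and -0.01 log2 in adult DN2 (difference 7.90 ± 0.34 log2, adjusted p = 1.39e-08). *Prtn3*, the granule protease proteinase 3, stood at 6.27, 7.01 and 5.70 log2 in fetal ETP, against -0.10, -0.02 and -0.03 log2 in adult DN2 (difference 6.37 ± 0.93 log2, adjusted p = 0.001). Adult DN2 was flat near the median of all arrays for both genes. The Fc receptor genes *Fcgr3* and *Fcer1g* and the adaptor gene *Tyrobp* were higher by 4.56, 2.82 and 2.91 log2, the call of *Tyrobp* being lost without Fetal ETP replicate 1 or 2 or Adult DN2 replicate 1 or 3 (adjusted p up to 0.09). *Anxa2* was lower, with -2.89 ± 0.33 log2 in 1 of 3 probe sets. The lower count was 3 without Adult DN2 replicate 1. The mast cell and megakaryocyte list had 3 higher genes of 23 (13.0%, against 3.08% of all genes). *Hdc*, the enzyme that makes histamine, was higher by 5.85 log2 in 1 of 2 probe sets. The integrin chain *Itga2b* was higher by 2.20 log2 (adjusted p = 0.0624 without Fetal ETP replicate 1), and the third was *Gzmb*. The mast cell protease genes *Cma1*, *Mcpt2*, *Mcpt1* and *Mcpt8* were not called, with differences of 3.24, 2.70, 2.25 and 1.66 log2. The other protease genes of the list, *Tpsb2*, *Tpsab1*, *Mcpt4* and *Cpa3*, were not called either. Their differences were 0.58, 0.06, 0.05 and -0.51 log2. *Cma1* stood at 2.31, 7.29 and 0.07 log2 in fetal ETP, against -0.06, 0.01 and 0.00 log2 in adult DN2 (adjusted p = 0.163), and was called without Fetal ETP replicate 3. *Cma1*, *Mcpt2*, *Mcpt1* and *Mcpt8* were highest in Fetal ETP replicate 2 and near 0 in replicate 3. *Ms4a2*, *Pf4* and *Gp9* lay between -0.15 and 0.05 log2 on all 6 arrays, the median of the 23 genes lay between 0.02 and 0.06 log2 on the fetal ETP arrays and between -0.08 and 0.01 log2 on the adult DN2 arrays, and the part of mast cells in these values was not tested.

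Other myeloid markers were not called. *Mpo*, myeloperoxidase, stood at 3.85, 4.15 and 3.64 log2 in fetal ETP and at -0.38, 1.65 and -0.24 log2 in adult DN2, without overlap but also without a call (difference 3.54 ± 1.39 log2, adjusted p = 0.201). *Elane*, neutrophil elastase, lay between -0.11 and 0.04 log2 on all 6 arrays, and *Lyz2* differed by -1.34 log2 (adjusted p = 0.295). The median of the 36 genes lay between 0.03 and 0.07 log2 on the fetal ETP arrays and between -0.09 and 0.01 log2 on the adult DN2 arrays. The means of adult ETP were 9.55 log2 for *Csf1r* and 6.83 log2 for *Prtn3*, and those of fetal DN2 were -0.01 and 1.52 log2. The methods depleted CD11b+ cells, and the part of myeloid cells in these values was not tested.

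Fetal ETP also had higher values for a share of the natural killer and innate lymphoid genes. Of 38 measured genes 10 were higher (26.3%, against 3.08% of all genes). None was lower, also with an unadjusted p in limma or by the methods' analysis of variance. The median difference was 0.29 log2, against 0.06 log2 over all genes. Differences were above 0 for 36 genes, but with such a median over all genes a flat gene could also be above 0. Among the 10 were *Id2*, *Fcer1g*, *Tyrobp* and *Gzmb*, which were also counted in lists described above, so that the lists are not independent. *Gzmb*, granzyme B, stood at 4.19, 4.95 and 4.33 log2 in fetal ETP, against -2.40, -2.31 and -1.78 log2 in adult DN2 (difference 6.65 ± 0.57 log2, adjusted p = 9.92e-06). *Klrd1*, the CD94 chain of natural killer receptors, stood at 7.63, 6.70 and 5.27 log2 in fetal ETP, against -0.09, 0.01 and -0.01 log2 in adult DN2 (difference 6.56 ± 0.41 log2, adjusted p = 4.58e-07). The 2 genes differed in the groups beside the pair. *Gzmb* had means of -1.27 log2 in adult ETP beside 3.89 log2 in fetal DN2, and *Klrd1* of 6.15 log2 in adult ETP beside 0.00 log2 in fetal DN2. *Cd160*, *Fasl* (the ligand of the death receptor Fas), the chemokine *Ccl5* and *Icos* were higher by 2.66, 4.31, 4.08 and 1.74 log2.

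The defining marker of natural killer cells *Ncr1* lay between -0.08 and 0.06 log2 on all 6 arrays, and *Eomes* stood at 0.59, 0.02 and 0.32 log2 in fetal ETP, against 0.00, 0.02 and 0.00 log2 in adult DN2, without a call. *Klrc1*, the NKG2A partner of CD94, was uneven among the fetal arrays, with 5.07, 3.95 and 0.61 log2 in fetal ETP against -0.21, 0.03 and 0.00 log2 in adult DN2. It was called with adjusted p = 0.0197, and without Fetal ETP replicate 2 the adjusted p was 0.0861, and the call was also lost without Fetal ETP replicate 1 or Adult DN2 replicate 1. *Gzma*, granzyme A, was not called, with 0.11, 0.45 and 0.27 log2 in fetal ETP and -1.48, -2.32 and -1.93 log2 in adult DN2 (adjusted p = 0.0974). The median of the 38 genes lay between 0.12 and 0.22 log2 on the fetal ETP arrays and between -0.11 and 0.02 log2 on the adult DN2 arrays. The methods depleted NK1.1+ cells, and the part of natural killer cells in these values was not tested.

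Among the markers of gamma delta T cells 2 of 12 measured genes were lower (16.7%, against 2.2% of all genes). Their differences were -1.05 ± 0.20 log2 for *Il17rb* and -0.86 ± 0.20 log2 for *Blk*. The call of *Blk*, a Src family kinase, was lost without Fetal ETP replicate 1 or 2 or Adult DN2 replicate 1, with an adjusted p of up to 0.1. *Trgv1*, a variable segment of the gamma chain, stood at -2.16, -1.97 and -3.69 log2 in fetal ETP, against 2.57, 1.39 and 1.68 log2 in adult DN2. Its difference of -4.48 ± 0.98 log2 (adjusted p = 0.015) was among the 20 widest lower ones, and its call was lost without Fetal ETP replicate 3 (adjusted p = 0.0628) or Adult DN2 replicate 1. Variable segments resemble each other, so that the probe set may also bind transcripts of related segments.

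Regulators of the fetal state were among the widest differences. Of 12 measured genes listed as fetal and oncofetal regulators 4 were higher (33.3%, against 3.08% of all genes) and 1 was lower (8.33%, against 2.2%). Like the other lists, this one was chosen with earlier results of these data known. *Hmga2*, an architectural chromatin protein of fetal stem cells, stood at 3.86, 3.43 and 3.76 log2 in fetal ETP, against -4.88, -5.32 and -5.43 log2 in adult DN2 (difference 8.90 ± 0.28 log2, adjusted p = 4.4e-10, 3 of 3 probe sets). *Igf2bp1*, which binds messenger RNAs of growth factors, stood at 3.19, 3.04 and 3.25 log2 in fetal ETP, against -3.19, -3.10 and -2.61 log2 in adult DN2 (difference 6.13 ± 0.26 log2, adjusted p = 1.31e-08). *Enah*, a regulator of actin filaments, stood at 3.07, 3.22 and 3.28 log2 in fetal ETP, against -4.60, -4.27 and -4.30 log2 in adult DN2 (difference 7.58 ± 0.33 log2, adjusted p = 1.32e-08, 1 of 4 probe sets). The arrays within a group were close together for these genes and far from the other group.

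Adult ETP averaged -3.15 log2 for *Igf2bp1* and -4.05 log2 for *Enah*, with 3.31 and 4.26 log2 in fetal DN2, so that for them the other adult stage stood with adult DN2. *Hmga2* differed from this, with 0.87 log2 in adult ETP beside 1.88 log2 in fetal DN2. *Igf2bp3*, a relative of *Igf2bp1*, was higher by 2.94 log2 in 4 of 4 probe sets, a call lost without Fetal ETP replicate 1 or 3 (adjusted p up to 0.0656). The lower gene was *Bach2*, a repressor in lymphocytes, with a difference of -2.97 log2, and of the arrays left out in turn only the removal of Adult DN2 replicate 3 kept its call (adjusted p up to 0.111).

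Of 19 measured imprinted growth genes 3 were higher (15.8%, against 3.08% of all genes). None was lower in limma, also at an unadjusted p under 0.05, or by the methods' analysis of variance. *Ndn*, the growth suppressor necdin, stood at 3.04, 2.97 and 3.50 log2 in fetal ETP, against -3.95, -3.72 and -3.53 log2 in adult DN2 (difference 6.90 ± 0.70 log2, adjusted p = 4.73e-05, 5 of 8 probe sets). *Igf2*, the fetal growth factor, stood at 2.09, 3.16 and 0.27 log2 in fetal ETP, against -2.94, -3.00 and -2.97 log2 in adult DN2 (difference 4.81 ± 0.75 log2, adjusted p = 0.00153, 1 of 2 probe sets). *Grb10*, an adaptor that restrains growth signals, was higher by 2.20 ± 0.28 log2 in 1 of 3 probe sets. Fetal ETP replicate 3 was the lowest of its group for *Igf2* and still above every adult DN2 array, and *Igf2* averaged 4.85 log2 in fetal DN2 and 7.30 log2 in fetal DN3, and -2.63 log2 in adult ETP.

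The erythroid list, which marks red cell precursors, had 1 higher gene of 18 (5.56%, against 3.08% of all genes). The count was 2 without Fetal ETP replicate 1, 2 with the array number as a block and 0 with the 6 arrays alone. The higher gene was *Ermap*, with 1.67, 2.50 and 4.16 log2 in fetal ETP and 0.11, 0.01 and -0.01 log2 in adult DN2. *Hbb-y*, a globin of the embryo, had values of 0.04, 3.96 and 4.58 log2 in fetal ETP and of -0.10, 0.00 and -0.01 log2 in adult DN2, without a call. *Alas2*, the first enzyme of haem synthesis in red cells, was high only in Fetal ETP replicate 3, with 4.12 log2, and *Hba-a1* lay between -0.07 and 0.04 log2 on all 6 arrays. The median of the 18 genes lay between 0.02 and 0.42 log2 on the fetal ETP arrays and between -0.07 and 0.01 log2 on the adult DN2 arrays. The methods depleted TER119+ cells, and the part of red cell precursors in the comparison was not tested.

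**Figure D3:**
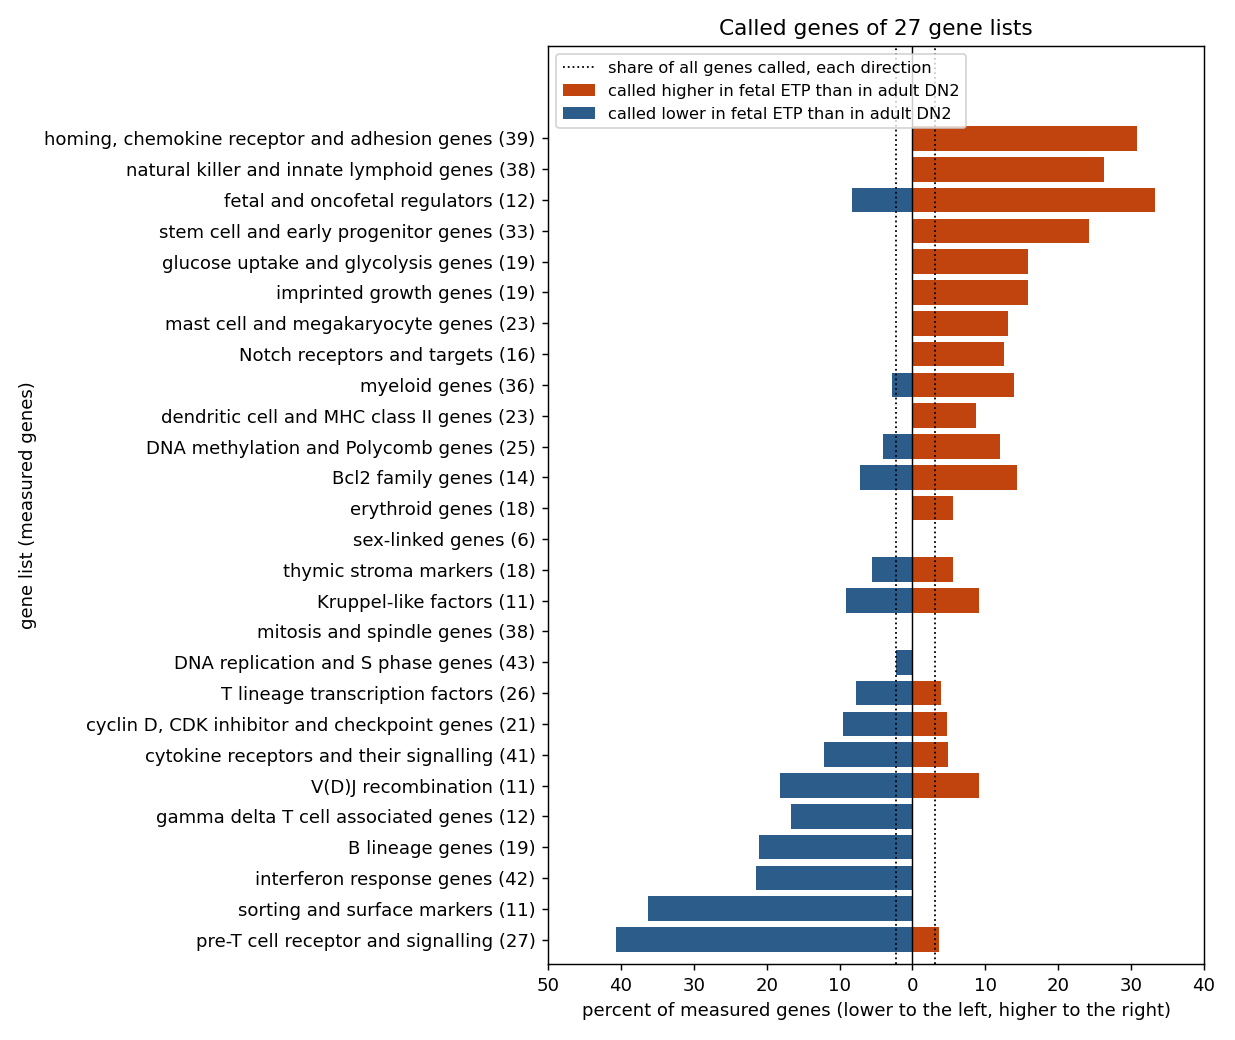
Percent of the measured genes of 27 gene lists (vertical axis, number of measured genes in brackets) that were called higher (bars to the right) or lower (bars to the left) in fetal ETP than in adult DN2, with dotted lines at the shares of all genes, 3.08% and 2.2%. The pre-T cell receptor list reaches 40.7% lower, and the lists of fetal regulators, homing genes and natural killer genes reach 33.3%, 30.8% and 26.3% higher. The lists were chosen with earlier results of these data known.

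Several genes that respond to interferon were lower in fetal ETP. Of 42 measured genes 9 were lower (21.4%, against 2.2% of all genes) and none was higher. The median difference was -0.44 log2. At an unadjusted p under 0.05 limma gave 17 lower and 1 higher, against 3897 of all 22626 probe sets in both directions. The methods' analysis of variance gave 12 lower and 2 higher after adjustment. *Gbp6*, a guanylate binding protein induced by interferon gamma, stood at -4.44, -4.40 and -4.39 log2 in fetal ETP, against 2.86, 2.28 and 3.39 log2 in adult DN2 (difference -7.25 ± 0.63 log2, adjusted p = 1.14e-05). *Gbp8*, its relative outside the list, stood at -4.21, -4.30 and -6.60 log2 in fetal ETP, against 1.42, -0.18 and 1.05 log2 in adult DN2 (difference -5.80 ± 0.78 log2, adjusted p = 0.00049). These genes are close copies and their probe sets may bind each other's transcripts. *Ifngr1*, a chain of the interferon gamma receptor, was lower as well, with -1.26, -1.23 and -1.15 log2 in fetal ETP and 0.83, 0.91 and 0.93 log2 in adult DN2 (difference -2.10 ± 0.20 log2, adjusted p = 3.29e-05).

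The antiviral genes *Rsad2* and *Ifit2* and the GTPase gene *Iigp1* were lower to a smaller extent. *Rsad2* stood at -0.58, -2.47 and -0.38 log2 in fetal ETP, against 1.09, 1.02 and 2.57 log2 in adult DN2 (difference -2.70 ± 0.60 log2, adjusted p = 0.0169). *Ifit2* stood at -0.53, -0.98 and -0.20 log2 in fetal ETP, against 1.45, 0.57 and 2.04 log2 in adult DN2 (difference -1.92 ± 0.40 log2, adjusted p = 0.0119). Fetal ETP replicate 2 was the lowest array for both, and without it 3 of the 42 genes were called and the adjusted p was 0.0663 for *Rsad2*, 0.0568 for *Ifit2* and 0.0596 for *Iigp1*. The call of *Rsad2*, in 1 of 3 probe sets, was also lost without Adult DN2 replicate 3. The count was 6 without Fetal ETP replicate 1 and lay between 7 and 10 when any of the other 4 arrays was left out, and it was 2 when the 6 arrays were fitted alone. *Tap1* and *Psmb9*, which serve the loading of MHC class I, were lower, with differences of -1.57 and -1.04 log2, *Tap1* in 1 of 4 probe sets. *Rsad2* had a mean of 2.87 log2 in adult ETP beside -1.74 log2 in fetal DN2. The median of the list was 0.68 log2 in adult ETP beside -0.18 log2 in fetal DN2, and the median of each fetal group was below that of each adult group at these stages. The median over the list was -0.17, -0.08 and -0.10 log2 on the fetal ETP arrays, against -0.005, 0.41 and 0.52 log2 on the adult DN2 arrays.

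Of these 9 genes, any window on a chromosome that was set aside was left out of the promoter count. Promoters of 5 of the 9 genes, read from RefSeq (GRCm38.p6), are counted here. They are shown because the genes were lower together and interferon factors bind promoters with paired GAAA letters. The window of 250 bases before the gene start was searched on both strands for GAAANNGAAA, which reads TTTCNNTTTC on the other strand, and matches are in capitals.
*Rsad2*, chr12:26456453-26456702, minus strand: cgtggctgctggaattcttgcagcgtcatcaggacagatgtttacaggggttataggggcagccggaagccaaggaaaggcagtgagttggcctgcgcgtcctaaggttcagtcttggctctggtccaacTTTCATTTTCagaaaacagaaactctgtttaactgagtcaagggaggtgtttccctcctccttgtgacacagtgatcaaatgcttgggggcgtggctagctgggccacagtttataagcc
*Oas1a*, chr5:120907526-120907775, minus strand: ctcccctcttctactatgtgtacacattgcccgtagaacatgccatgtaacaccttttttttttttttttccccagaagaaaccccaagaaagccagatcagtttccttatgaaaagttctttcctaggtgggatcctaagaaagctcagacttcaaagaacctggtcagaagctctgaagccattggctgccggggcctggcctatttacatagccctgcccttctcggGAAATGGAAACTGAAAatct
*Tap1*, chr17:34187306-34187555, plus strand: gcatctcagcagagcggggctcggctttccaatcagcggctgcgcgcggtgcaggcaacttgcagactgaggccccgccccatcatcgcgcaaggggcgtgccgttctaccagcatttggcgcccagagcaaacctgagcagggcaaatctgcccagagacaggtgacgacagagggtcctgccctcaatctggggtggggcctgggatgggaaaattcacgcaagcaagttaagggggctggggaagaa
The letters were found before 2 of the 5 genes, *Rsad2* and *Oas1a* (2 overlapping matches before *Oas1a*). They were found in 3.35% of the 9893 measured genes with a promoter in the table, where no chromosome was set aside. The windows of *Tap1* and *Psmb9*, which lie head to head on chromosome 17, and both windows of *Ifit2* hold no match. *Oas1a* itself was lower, with a difference of -1.29 log2, with adjusted p = 0.0449, and of the arrays left out in turn only the removal of Adult DN2 replicate 1 kept its call (adjusted p up to 0.131). It belongs to a family of close copies.

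Of 21 measured cyclin D, kinase inhibitor and checkpoint genes 1 was higher (4.76%, against 3.08% of all genes) and 2 were lower (9.52%, against 2.2%). Single genes had wide differences in both directions. *Ccnd1*, cyclin D1, stood at 6.99, 5.63 and 7.45 log2 in fetal ETP, against -0.22, -0.01 and -0.05 log2 in adult DN2 (difference 6.78 ± 0.35 log2, adjusted p = 6.26e-08, 3 of 3 probe sets). *Cdkn2c*, the inhibitor p18 of the kinases that cyclin D activates, stood at -3.18, -3.52 and -3.24 log2 in fetal ETP, against 2.97, 2.62 and 2.43 log2 in adult DN2 (difference -5.98 ± 0.41 log2, adjusted p = 1.07e-06). *Ccnd3*, cyclin D3, was lower, with a difference of -1.53 ± 0.29 log2 (adjusted p = 0.00653). *Ccnd1* had means of 6.37 log2 in adult ETP beside 0.45 log2 in fetal DN2 and *Cdkn2c* of 0.03 and -3.00 log2, so that neither group beside the pair shared both values with fetal ETP.

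Of 43 measured genes of DNA replication and S phase 1 was lower (2.33%, against 2.2% of all genes). It was the thymidine kinase *Tk1*, with a difference of -1.13 ± 0.22 log2 (adjusted p = 0.00767). The lower count was 2 without Adult DN2 replicate 1 or Fetal ETP replicate 3, 3 with array weights and 0 with the 6 arrays alone, and at an unadjusted p under 0.05 limma gave 10 lower and 1 higher. None of 38 mitosis and spindle genes was called in limma, where 2 were higher and 7 lower at an unadjusted p under 0.05, or by the methods' analysis of variance after adjustment. The median differences were -0.28 log2 for replication and -0.40 log2 for mitosis, and the difference was below 0 for 30 of 43 and 31 of 38 genes. *Mki67*, the antigen Ki-67, stood at 0.01, -0.49 and -0.40 log2 in fetal ETP, against 1.08, -0.01 and 0.68 log2 in adult DN2 (adjusted p = 0.154). It was called without Adult DN2 replicate 2 and with the array number as a block (adjusted p = 0.0307). In adult ETP the medians of the lists were -0.74 and -1.04 log2, below those of both groups of the pair.

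**Figure D4:**
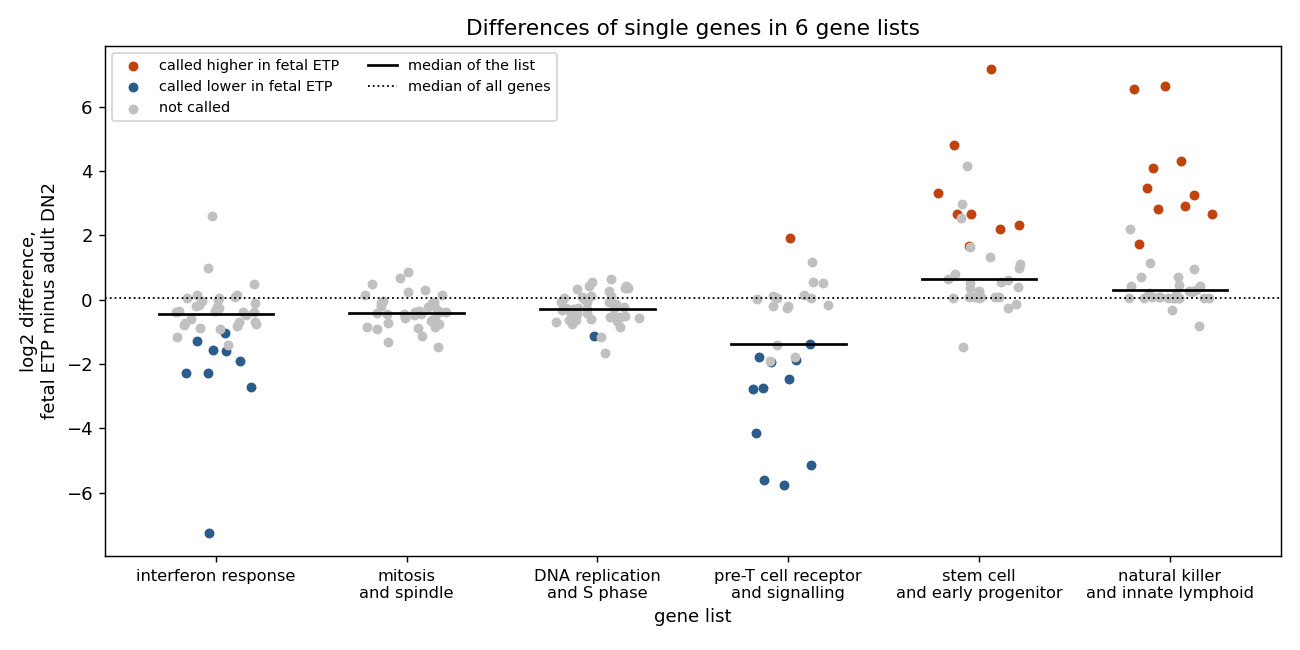
Log2 differences, fetal ETP minus adult DN2 (vertical axis), of the single genes of 6 gene lists (horizontal axis), with called genes in colour, the median of each list as a line and the median of all genes, 0.06 log2, as a dotted line. The interferon, mitosis, replication and pre-T cell receptor lists have medians below the dotted line, at -0.44, -0.40, -0.28 and -1.37 log2.

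Several receptors of homing, adhesion and axon guidance families were higher in fetal ETP. Of 39 measured genes 12 were higher (30.8%, against 3.08% of all genes), and 6 with the 6 arrays alone. The median difference was 0.32 log2. None was lower in limma, with 2 lower at an unadjusted p under 0.05 and 2 by the methods' analysis of variance after adjustment. *Esam*, an adhesion molecule of endothelium and stem cells, stood at 6.12, 5.95 and 5.95 log2 in fetal ETP, against -0.13, -0.02 and -0.03 log2 in adult DN2 (difference 6.07 ± 0.41 log2, adjusted p = 1.15e-06). *Plxnc1*, a semaphorin receptor, stood at 4.52, 4.27 and 4.30 log2 in fetal ETP, against -0.44, -0.32 and -0.12 log2 in adult DN2 (difference 4.65 ± 0.14 log2, adjusted p = 2.98e-10, 2 of 4 probe sets). Both genes were even across the arrays of a group. *Plxnd1* and the Slit receptor *Robo1* were higher by 4.50 and 4.18 log2, the chemokine receptors *Cxcr6* and *Cxcr3* by 2.75 and 1.71 log2, and *Itgae*, the CD103 integrin chain, by 2.50 log2. *Ccr9* and *Ccr7*, which guide progenitors to the thymus, were not called, with differences of -0.87 log2 (-2.17 to 0.43) and 0.06 log2 (-0.12 to 0.25). The means of *Esam* were 0.85 log2 in adult ETP beside 1.17 log2 in fetal DN2, below all 3 fetal ETP arrays.

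Of 41 measured cytokine receptor and signalling genes 5 were lower (12.2%, against 2.2% of all genes), with *Il2ra* counted among them. The lower count was 3 without Fetal ETP replicate 2. In the other direction 2 were higher (4.88%, against 3.08%), and 0 without Fetal ETP replicate 1. *Il2ra*, which encodes CD25, was used to sort these cells and is no finding, with -2.85, -4.22 and -5.98 log2 in fetal ETP and 0.08, 0.76 and -0.10 log2 in adult DN2. *Kit*, on which only the ETP were sorted, stood at 1.59, 1.29 and 0.72 log2 in fetal ETP and at 0.00, -0.59 and -1.33 log2 in adult DN2. Both matched the gates in direction. *Il27ra*, a receptor of interleukin 27, was lower, with a difference of -2.38 ± 0.36 log2 (adjusted p = 0.00137). *Il7r*, the receptor of the survival factor interleukin 7, was lower, with a difference of -1.61 ± 0.33 log2, with adjusted p = 0.0108, or 0.0513 without Fetal ETP replicate 2. *Thy1*, a surface protein of T lineage cells, was lower, with a difference of -3.06 log2, a call lost without Fetal ETP replicate 1 or 3 or Adult DN2 replicate 1 or 2 (adjusted p up to 0.0690).

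Genes shared with the B lineage were lower where they were called. Of 19 measured B lineage genes 4 were lower (21.1%, against 2.2% of all genes), *Dntt*, *Pou2af1*, *Ighm* and *Blk*. None was higher in limma, also at an unadjusted p under 0.05, against 1 by the methods' analysis of variance after adjustment. *Pou2af1*, a coactivator of octamer factors in B cells, stood at -2.24, -2.27 and -2.24 log2 in fetal ETP, against 1.82, 3.69 and 3.98 log2 in adult DN2 (difference -5.41 ± 0.69 log2, adjusted p = 0.000339). *Ighm*, the mu heavy chain, stood at -2.13, -2.00 and -2.26 log2 in fetal ETP, against 1.63, 1.38 and 1.60 log2 in adult DN2 (difference -3.67 ± 0.23 log2, adjusted p = 4.26e-07), in 2 of 11 probe sets. *Ly6d*, a surface marker of lymphoid progenitors outside the list, was lower, with a difference of -5.68 ± 0.57 log2 (adjusted p = 4.21e-05). The defining B lineage markers *Cd79a* and *Pax5* lay between -0.08 and 0.07 log2 on all 6 arrays.

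Several of the 20 widest differences in each direction belonged to none of the lists. *B4galnt2*, *Rps4l* and *Homer2* were higher by 7.16, 6.93 and 5.28 log2, and their means were close to fetal ETP in fetal DN2 (4.11, 2.76 and 3.51 log2) and to adult DN2 in adult ETP (-3.74, -4.29 and -2.40 log2). *Fscn1*, the actin bundling protein fascin, was higher by 8.09 ± 0.74 log2 in 1 of 4 probe sets, and *Asns*, asparagine synthetase, by 6.22 ± 0.73 log2 in both probe sets. *Endou*, an endoribonuclease, stood at -6.55, -6.59 and -6.54 log2 in fetal ETP, against 0.60, 1.33 and 1.32 log2 in adult DN2 (difference -7.64 ± 0.95 log2, adjusted p = 0.000281). *Adcy6*, an adenylate cyclase, and *Ctla4*, an inhibitory receptor of T cells, were lower, with differences of -5.51 and -4.59 log2. *Rps4l* is a close copy of other ribosomal protein genes, and its probe set may bind their transcripts.

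The arrays were projected on the line between the mean of adult ETP, set at 0, and the mean of adult DN2, set at 1. What lies off this line does not enter the position. The 3 fetal ETP arrays stood at 0.556, 0.664 and 0.582, a mean of 0.600 ± 0.056 (SD, n = 3). The 3 fetal DN2 arrays stood at 0.927, 0.958 and 1.02, and the groups did not overlap (exact two-sided permutation test, p = 0.1, the smallest that 3 against 3 arrays allow). Leaving out Adult DN2 replicate 2 gave 0.530 for fetal ETP. The root mean square of the differences between group means was 0.751 log2 for the 2 adult stages. It was 0.724 log2 for fetal ETP and adult DN2 and 0.799 log2 for fetal ETP and adult ETP. Fetal ETP thus also lay off the line, and its position is not a share of the way to adult DN2. The position sums over all probe sets, and single genes differed from it. *Gata3* and *Rag2* lay within 0.24 and 0.02 log2 of adult DN2, *Cd247* and *Sh2d1a* lay nearer to adult ETP, and for *Dntt* and *Igf2bp1* both adult groups stood apart from fetal ETP.

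**Figure D5:**
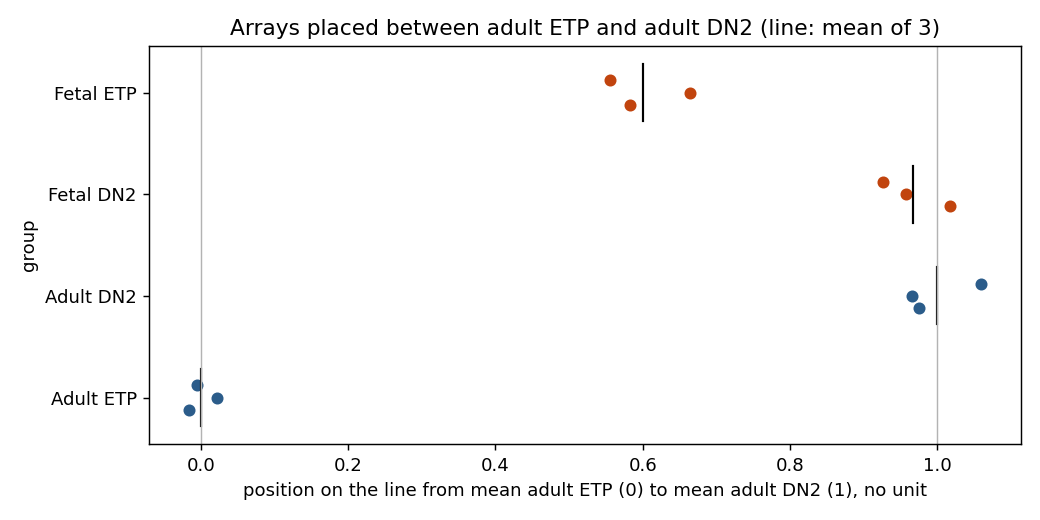
Position of single arrays (points) on the line from mean adult ETP at 0 to mean adult DN2 at 1 (horizontal axis, no unit) for fetal ETP, fetal DN2, adult DN2 and adult ETP (vertical axis), with the mean of each group as a line. The fetal ETP arrays stand between 0.556 and 0.664, apart from the other 3 groups. Differences off the line are not shown.

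Against the other groups, in comparisons that share the same arrays, fetal ETP differed from adult ETP in 1921 probe sets (8.49%), from fetal DN2 in 220 (0.972%), from adult DN3 in 1518 (6.71%) and from fetal DN3 in 1233 (5.45%). Adult DN2 differed from adult ETP in 1374 probe sets (6.07%) and from fetal DN2 in 779 (3.44%). The root mean square of the differences between group means was 0.724 log2 for fetal ETP and adult DN2, 0.799 log2 for fetal ETP and adult ETP and 0.451 log2 for fetal ETP and fetal DN2. The 9 pairs of single arrays lay 0.792 to 0.929 log2 apart for fetal ETP and adult DN2 and 0.853 to 0.998 log2 apart for fetal ETP and adult ETP, and these ranges overlap. Single arrays lay 0.318 to 0.525 log2 apart within fetal ETP and 0.668 to 0.731 log2 apart within adult DN2.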

How the data were processed

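The authors deposited log2 values made with GCRMA (version not given in the sources used here) from Affymetrix mouse expression arrays, after amplification of the RNA in a two-cycle procedure per the methods. These values are relative to the median of the 18 arrays for every probe set. A filter on level could therefore not be applied, and a span over 1 log2 took its place. Of 22626 probe sets 20380 have 1 gene in the platform annotation, 691 several and 1555 none. For a gene with several probe sets, those without a mark of cross-hybridization came first, and among them the widest SD decided.

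The log2 values were fitted with limma 3.58.1 in R 4.3.3 to the 6 groups together, 18 arrays in all (12 residual and 0.971 prior degrees of freedom, median moderated SD 0.23 log2) and intervals of 95%. The number of arrays limits the precision. Array weights were estimated gene by gene, since the default estimate did not converge. Tables and plots were made in Python 3.11.15 with pandas 2.3.3.

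The labels number the arrays 1 to 3. After the group means were removed, fetal ETP and adult DN2 arrays of the same number correlated (r = 0.229, 0.270 and 0.374, against -0.289 to 0.031 for other numbers). The labels and the methods state no pairing of the arrays. The main fit did not use the numbers, and blocked fits were alternatives.

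Genes named in the text are the sorting markers, up to 6 called members of each of 27 lists in each direction, the 20 widest differences in each direction without overlap, all T lineage factor, pre-T cell receptor and V(D)J genes, and genes that the paper's text names. Defining cell type markers, and *Tal1*, *Mycn*, *Mef2c*, *Mpo*, *Lyz2*, *Cma1*, *Mcpt1*, *Mcpt2*, *Mcpt4*, *Mcpt8*, *Tpsab1*, *Tpsb2*, *Bak1*, *Bcl2l11*, *Cd160*, *Icos*, *Eomes*, *Gzma*, *Hbb-y*, *Alas2*, *Tap1*, *Psmb9*, *Oas1a*, *Mki67* and the sex-linked genes, fall outside this rule and were chosen after their values were seen. Of 707 listed genes 605 were measured. The gene lists, the comparison and the rule for named genes were chosen with earlier results of these data known.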

Additional observations from a re-analysis of the deposited data

How the results depend on the processing

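Leaving out each of the 6 arrays in turn gave 411 to 692 higher and 285 to 542 lower probe sets, with the fewest higher calls without Fetal ETP replicate 1. The 6 arrays fitted alone, with fewer residual degrees of freedom, gave 261 higher and 160 lower, and 159 and 104 with the array number as a replicate block in addition. The replicate block over all 18 arrays, which treats arrays of the same number as belonging together, gave 723 and 456. Quantile normalization gave 619 higher and 624 lower calls and moved the median of all probe sets to -0.002 log2. The methods' analysis of variance over the 6 groups gave 1174 and 733 without adjustment and 892 and 600 after Benjamini and Hochberg. Array weights, a robust prior, each array centred, a fold limit of 2 or none, and a span over 1 log2 gave 559 to 831 higher and 369 to 508 lower calls. The position of fetal ETP lay between 0.530 and 0.645 without single arrays, and the cause of the lowest value was not tested. Of 111 called genes covered by the rule for names, 89 to 105 kept their call without single arrays, 55 with the 6 arrays alone, 110 with the block, 98 with array weights and 103 with probe sets averaged by gene, and no direction turned.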

Other observations

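Outside the lists described so far, Kruppel-like factors held 1 higher and 1 lower gene of 11 (9.09% each, against 3.08% and 2.2% of all genes). *Klf4*, a factor of quiescence and pluripotency, stood at 2.02, 1.61 and 1.68 log2 in fetal ETP, against -4.14, -3.78 and -3.08 log2 in adult DN2 (difference 5.43 ± 0.57 log2, limma adjusted p = 6.93e-05, 1 of 2 probe sets). *Klf9*, a factor induced by steroid and thyroid hormones, stood at -1.19, -1.41 and -1.54 log2 in fetal ETP, against 4.01, 3.82 and 4.44 log2 in adult DN2 (difference -5.47 ± 0.53 log2, adjusted p = 3.32e-05, 2 of 7 probe sets). The groups lay apart for both. The means of *Klf4* were 2.01 log2 in adult ETP beside 1.51 log2 in fetal DN2, both above adult DN2, and those of *Klf9* were 2.52 and -1.40 log2, so that the adult groups were above the fetal ones.

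Of 14 measured Bcl2 family genes 2 were higher in fetal ETP (14.3%, against 3.08% of all genes), and 0 with the 6 arrays alone. The 2 higher genes were *Pmaip1* (Noxa), by 4.29 ± 0.74 log2, and *Bid*, by 2.09 ± 0.39 log2. Other members that promote cell death were not called, among them *Bak1* with 0.59 log2 and *Bcl2l11* (Bim) with -1.04 log2. The survival gene *Bcl2* was the 1 lower gene (7.14%, against 2.2% of all genes), with a difference of -1.86 ± 0.48 log2. It stood at 2.46 log2 in Adult DN2 replicate 1 against 0.40 and 0.01 log2 in the other 2. Its call was lost without any 1 of the fetal ETP arrays (adjusted p up to 0.118). Of 25 DNA methylation and Polycomb genes 3 were higher (12%, against 3.08% of all genes), 1 with the 6 arrays alone. The histone methyltransferase gene *Ezh1* was the 1 lower gene (4%, against 2.2% of all genes), with a difference of -1.25 ± 0.30 log2. Its call was lost without Fetal ETP replicate 1 or 2, without Adult DN2 replicate 2 or 3 and with the 6 arrays alone. The methyltransferase gene *Dnmt3a* stood at 0.96, 0.84 and 0.88 log2 in fetal ETP, against -1.12, -1.13 and -1.16 log2 in adult DN2, in 2 of 5 probe sets, and *Dnmt3b* was higher by 1.56 ± 0.30 log2. Of 19 glycolysis genes 3 were higher (15.8%, against 3.08% of all genes), 0 with the 6 arrays alone. None was lower in limma, against 1 at an unadjusted p under 0.05, 1 by the methods' analysis of variance after adjustment and 1 without Adult DN2 replicate 1. Among the higher ones were the glucose transporter *Slc2a1* by 2.38 ± 0.39 log2 in 3 of 3 probe sets and the hexokinase *Hk2* by 1.23 ± 0.26 log2. None of 6 measured sex-linked genes was called. The Y-linked *Uty*, *Kdm5d* and *Eif2s3y* had differences of 1.97, 0.72 and 0.50 log2. The X-linked *Kdm6a*, *Eif2s3x* and *Xist* had differences of 0.45, 0.50 and -0.13 log2. The part of sex in the comparison was not tested. Of 18 thymic stroma markers 1 was higher and 1 lower (5.56% each, against 3.08% and 2.2% of all genes). *Krt18* was higher by 2.80 log2 and *Epcam* lower, with a difference of -2.96 log2. *Foxn1*, the defining factor of thymic epithelium, lay between -0.09 and 0.04 log2 on all 6 arrays.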
